A study of Mus musculus with 18 samples.

Results

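Wnt signaling keeps the stem cells at the base of colonic crypts dividing. When a Wnt ligand binds Frizzled and LRP receptors, β-catenin escapes the destruction complex of APC, AXIN and GSK3, enters the nucleus and switches on target genes with TCF/LEF factors, and R-spondins bound to LGR receptors prolong the signal by removing the ligases RNF43 and ZNRF3 from the cell surface. Many targets are themselves brakes on the pathway, and activation of β-catenin is a hallmark of colonic adenomas, including those raised in mice with a carcinogen.

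The 10 genes examined here are a list of such Wnt target and crypt base stem cell genes, taken by symbol from the count table of the series: *Axin2*, *Nkd1*, *Notum*, *Rnf43*, *Znrf3*, *Lgr5*, *Ascl2*, *Smoc2*, *Sox9* and *Myc*. All 10 were present among the 47729 genes of the table, and all 10 passed the filter on low counts that left 16937 genes for testing. RNA was sequenced from colon of WT mice and of *Cldn2*KO mice, which lack the gene of the tight junction protein claudin-2. The study states that the colon was distal for the mice recovering from colitis. How the gene was deleted, and in which cells, is not stated. The methods describe the mice as C57BL/6, with littermate controls and with ages and sexes matched, but their ages were not given in the sources used here. In each genotype the mice were untreated controls, were recovering from colitis brought on by drinking dextran sulfate sodium (DSS), which damages the lining of the colon, or had been given azoxymethane, a carcinogen, before the DSS (AOM/DSS), which raises tumors in the inflamed colon. The labels give AOM as 1 dose of 10 mg/kg and DSS as 3 cycles at 2.5% under the same text for every sample, so the dose and length of the DSS course in the recovery groups are not known here. Each of the 6 groups had 3 libraries, 18 in all. The legends of the study count as many samples in each recovery and AOM/DSS group as there are libraries, but nothing in the labels ties a library to a mouse, so the p-values below measure the spread between libraries.

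Each library held between 17643058 and 27390344 counted reads (median 19596026). Levels are given as counts-per-million (CPM, reads of a gene over the scaled total of its library), and a gene is called higher or lower where the edgeR quasi-likelihood test gave a Benjamini-Hochberg adjusted p under 0.05 over all 16937 genes. *Cldn2* stood at 44.5 to 504 CPM in the WT libraries and at 0.0555 to 0.557 CPM in the *Cldn2*KO libraries, and all 8 epithelial markers looked at (such as *Epcam* and *Cdh1*) had reads in every library. The tissue of the libraries was not alike, however. Summed over 6 posterior Hox genes, which mark the distal end of the gut, the level was 521 to 892 CPM in 11 libraries, 1.77 to 3.59 CPM in all 6 libraries of recovery and, in 1 control of the WT group (replicate 2), 11 CPM. Recovery and a low posterior Hox level therefore cannot be told apart, and WT control replicate 2 stands apart from its group in several of the genes below. *Xist*, the transcript of the inactive X chromosome in females, was above 100 CPM in replicates 2 and 3 of WT recovery, *Cldn2*KO recovery and *Cldn2*KO AOM/DSS and below it in all other libraries, so those 3 groups mixed the sexes. In the controls of both genotypes and in WT AOM/DSS 0 of 3 libraries were above it, so by this measure recovery and control differed in sex in both genotypes, as did AOM/DSS and recovery in WT, AOM/DSS and control in *Cldn2*KO and the genotypes in AOM/DSS, while the other pairs of groups compared were alike.

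Promoter sequence is shown for *Axin2* and *Ascl2*, a brake and a stem cell factor that were called higher in AOM/DSS than in recovery in both genotypes. The promoter table held 4 of the 10 genes (*Axin2*, *Ascl2*, *Nkd1* and *Rnf43*), and these were the 2 of the 4 whose RefSeq start site was also the gene start in the deposited annotation. Each line gives the 250 bases before the start site (RefSeq, GRCm38.p6), 5′ to 3′ on the strand of the gene, with CpG dinucleotides in capitals. The *Axin2* stretch lies at chr11:108920099-108920348 on the plus strand and the *Ascl2* stretch at chr7:142969265-142969514 on the minus strand.
Axin2: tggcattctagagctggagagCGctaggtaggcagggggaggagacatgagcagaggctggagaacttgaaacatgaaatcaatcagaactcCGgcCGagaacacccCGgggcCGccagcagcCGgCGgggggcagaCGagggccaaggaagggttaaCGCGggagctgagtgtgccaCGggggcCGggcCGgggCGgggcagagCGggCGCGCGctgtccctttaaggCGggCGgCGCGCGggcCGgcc
Ascl2: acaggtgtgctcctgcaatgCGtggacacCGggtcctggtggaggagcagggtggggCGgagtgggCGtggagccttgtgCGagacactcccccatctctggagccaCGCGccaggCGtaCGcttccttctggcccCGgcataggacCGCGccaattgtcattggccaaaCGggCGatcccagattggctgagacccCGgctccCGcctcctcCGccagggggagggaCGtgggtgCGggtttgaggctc
Both stretches were rich in CpG, with 24 in *Axin2* and 19 in *Ascl2* against a median of 6 over 32851 promoters, and GC made up 69.2% and 67.6% of their bases against a median of 52.4%. The TCF/LEF core, searched as CTTTG followed by 2 bases that are each A or T, on both strands over 250 bases before and 50 after the start, was present in 16.9% of all promoters. It was in none of the 5 promoters that the table held for these 4 genes, which says only that those letters are not in that window.
The table places (GRCm38) *Axin2* at chr11:108920349-108950783 (plus strand), *Rnf43* at chr11:87662722-87735539 (plus strand), *Znrf3* at chr11:5276324-5444847 (minus strand) and *Sox9* at chr11:112782224-112787760 (plus strand) on the same chromosome as *Notum*. It places *Lgr5* at chr10:115450311-115587780 (minus strand), *Ascl2* at chr7:142966829-142969264 (minus strand), *Smoc2* at chr17:14279506-14404790 (plus strand), *Myc* at chr15:61985341-61990374 (plus strand) and *Nkd1* at chr8:88521344-88594887 (plus strand). Counts were summed over the exons of each gene.

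The genes differed widely in abundance in untreated colon. In RPKM, which is CPM per kilobase of exon, *Smoc2* had the highest mean level in WT controls at 12.5 ± 7.59 (SD, n = 3), followed by *Sox9* at 8.07 ± 3.70. *Rnf43* and *Myc* stood near each other at 4.04 and 3.98 RPKM, *Ascl2*, *Axin2* and *Nkd1* between 1.91 and 2.06 RPKM, and *Znrf3* at 1.17 RPKM. *Lgr5*, the best known marker of crypt base stem cells, was at 0.583 RPKM, and *Notum* was at 0.0759 RPKM and had 10 reads in all 3 WT control libraries together. In bulk tissue, fewer cells of a type and less RNA per cell cannot be told apart. Ordered by mean CPM over the 6 groups, a WT or *Cldn2*KO AOM/DSS group was first for all 10 genes, and of the 50 pairs of neighbours in these orders 45 overlapped in range while 5 did not. Neither count was made over all genes, so both only describe the 10 genes.

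**Figure D1:**
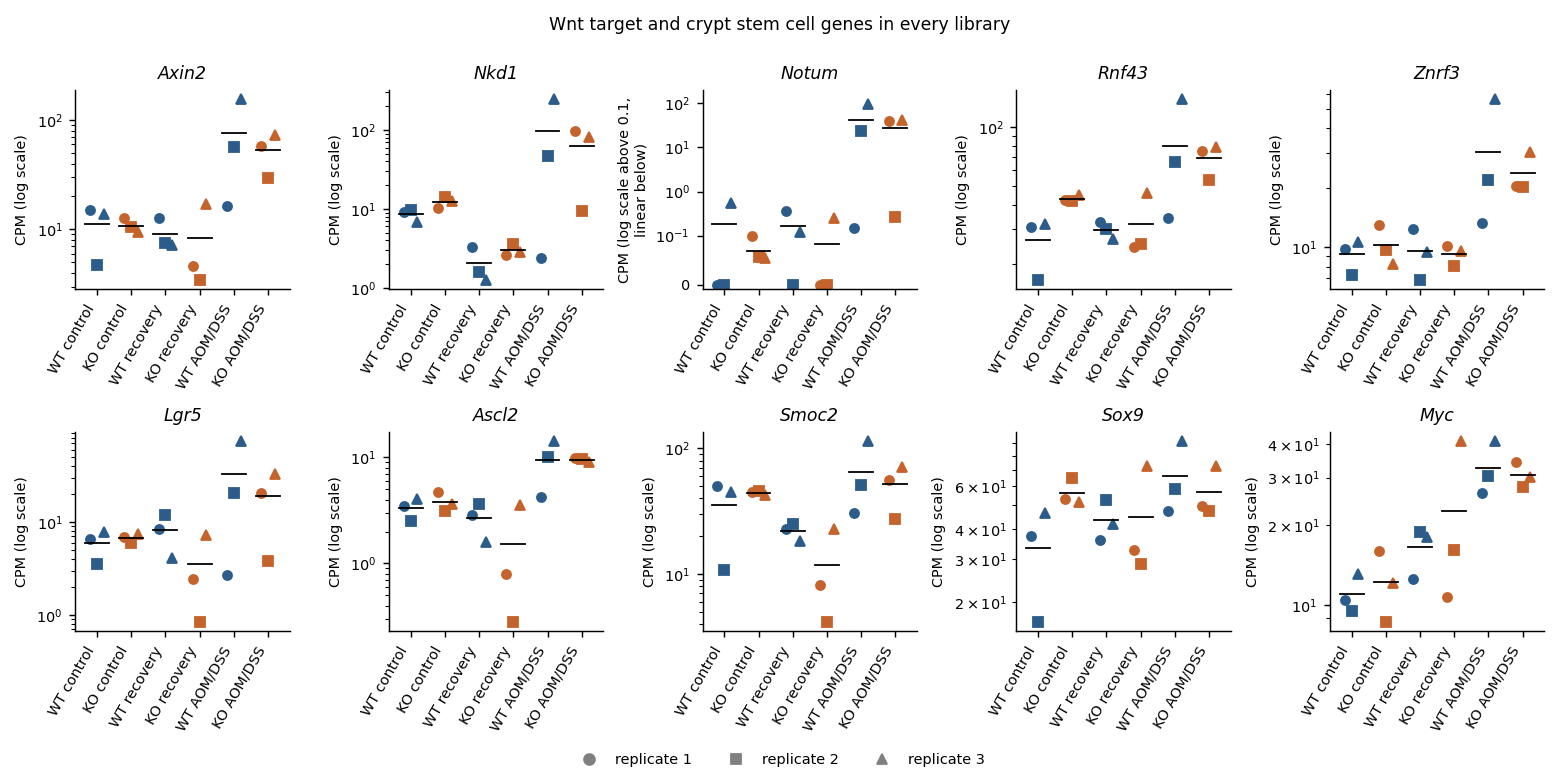
Level of each of the 10 genes in every library, in CPM on a logarithmic axis (for Notum logarithmic above 0.1 CPM and linear below), by group. Points are libraries (circle, square and triangle for replicates 1 to 3; blue WT, orange KO for *Cldn2*KO) and lines are group means. In AOM/DSS, WT replicate 3 is the highest WT library and WT replicate 1 the lowest for all 10 genes.

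Loss of *Cldn2* in untreated colon was the first comparison, and none of the 10 genes was called in it by edgeR. By the same test 0.124% of all genes were higher and 1.05% lower in *Cldn2*KO controls. None of the 10 genes had an unadjusted p under 0.05, beside 2223 of all 16937 genes, and DESeq2 called none of them and 4.07% of all genes. The median log2 fold change of the 10 genes was 0.18, beside -0.0055 over all genes.
*Sox9*, a transcription factor of crypt base and progenitor cells, stood at 37.2, 16.5 and 46.4 CPM in the WT control libraries and at 52.9, 64.7 and 51.3 CPM in the *Cldn2*KO controls. The *Cldn2*KO libraries were all above the WT libraries, with a log2 fold change of 0.75 ± 0.38 (SE, adjusted p = 0.426). *Rnf43*, the membrane ubiquitin ligase that clears Frizzled receptors, stood at 30.9, 16.5 and 31.97 CPM against 42.2, 42.00 and 45.04 CPM (0.70 ± 0.39 on the log2 scale, adjusted p = 0.484). *Nkd1*, an intracellular inhibitor that binds Dishevelled, stood at 9.08, 9.62 and 6.85 CPM against 10.3, 14.04 and 12.8 CPM (0.53 ± 0.999 on the log2 scale, adjusted p = 0.884).
The control groups did not overlap in these 3 of the 10 genes, beside 22.3% of all genes, a share near that of the members. For *Sox9* and *Rnf43* the gap was widest against WT control replicate 2, the library with few posterior Hox reads. In *Smoc2*, a secreted matrix protein found in crypt base cells, the same library stood at 10.7 CPM beside 50.6 and 44.6 CPM in the other WT controls. It had the lowest level of the WT controls in 8 of the 10 genes, and its summed differentiated colonocyte markers (7 genes, such as *Car1* and *Aqp8*) were at 56796 CPM against 6399 and 5855 CPM. Such a sum is weighted to the most abundant genes of its list. Markers of immune cells differed between the control groups. B and plasma cell markers (6 genes) summed to 734, 763 and 896 CPM in WT controls and 65.96, 13.3 and 165 CPM in *Cldn2*KO controls, with 1 of the 6 called lower. T and NK cell markers (7 genes) summed to 8.14, 114 and 11.3 CPM and 2.42, 0.999 and 7.05 CPM, with 3 of the 7 called lower. The part of these cells and of that library's tissue in the values was not tested.
The 95% confidence interval of the log2 difference was -1.84 to 2.17 for *Lgr5*, -1.55 to 1.45 for *Axin2* and -0.64 to 0.96 for *Myc*, so that a difference of more than 2-fold in *Lgr5* or *Axin2* could have been missed.

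Recovery was compared with control next, and these comparisons share the control libraries with those of AOM/DSS below. edgeR called none of the 10 genes between WT recovery and WT control, where 10% of all genes were higher and 12.2% lower. None of the 10 had an unadjusted p under 0.05, beside 6149 of all 16937 genes, and DESeq2 called none of them and 27.2% of all genes. Between *Cldn2*KO recovery and *Cldn2*KO control, where 9.43% of all genes were higher and 10% lower, 1 gene was called, *Smoc2*, which fell. Of the 10 genes 2 had an unadjusted p under 0.05 there, beside 5507 of all 16937 genes, and DESeq2 called 1 (23.9% of all genes). The median log2 fold change of the 10 genes was 0.08 in WT and -0.40 in *Cldn2*KO, beside -0.039 and 0.0037 over all genes.
*Smoc2* stood at 45.2, 45.9 and 42.2 CPM in *Cldn2*KO controls and at 8.19, 4.13 and 23.03 CPM in *Cldn2*KO recovery, ranges that did not overlap. The log2 fold change was -1.91 ± 0.64 (SE, adjusted p = 0.0486), a level 0.265 times that of controls. In WT the levels were 50.6, 10.7 and 44.6 CPM in controls and 22.7, 24.8 and 18.2 CPM in recovery, and the groups overlapped only through control replicate 2 (-0.69 ± 0.62 on the log2 scale, adjusted p = 0.456).
All recovery libraries that carried less *Smoc2* also carried little posterior Hox RNA. With a term for *Hoxb13* above 10 CPM in the model, which could be estimated from the WT controls alone, the log2 fold change of *Smoc2* was 0.23 in *Cldn2*KO and 1.03 in WT, and edgeR called no gene of the 10 in either, beside 0.785% of all genes in *Cldn2*KO and 8.72% in WT. The call in *Cldn2*KO was also lost with a term for sex (-2.01, adjusted p = 0.121) and on leaving out any 1 of the *Cldn2*KO controls or *Cldn2*KO recovery replicate 1 or 2.
Fibroblast markers (7 genes) went from a summed 539, 521 and 751 CPM to 187, 133 and 168 CPM in the same *Cldn2*KO groups, and 4 of the 7 were called lower in each genotype. Smooth muscle markers went from 7293, 7715 and 9684 CPM to 792, 955 and 1404 CPM, with 7 of 7 called lower in *Cldn2*KO and 4 of 7 in WT. Of the 8 epithelial markers 4 were called lower in WT recovery, while in *Cldn2*KO recovery edgeR and DESeq2 called none and none had an unadjusted p under 0.05. Of 7 differentiated colonocyte markers 4 were called lower in WT, and 2 lower and 1 higher in *Cldn2*KO. Their sum, weighted to the most abundant genes, was 28889, 51665 and 36395 CPM in WT recovery. In *Cldn2*KO it was 19753, 15910 and 38862 CPM in recovery against 9625, 13003.5 and 9784 CPM in controls. The part of these cells in the result was not tested.

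*Nkd1* was the 1 gene of the 10 with all recovery libraries below all controls in both genotypes, but it was not called in the fit of all 18 libraries. It stood at 3.34, 1.58 and 1.24 CPM in WT recovery against 9.08, 9.62 and 6.85 CPM in WT controls, and at 2.57, 3.57 and 2.85 CPM in *Cldn2*KO recovery against 10.3, 14.04 and 12.8 CPM in *Cldn2*KO controls. Of all genes, 20.9% in WT and 20.5% in *Cldn2*KO had every recovery library below every control. The log2 fold changes were -2.01 ± 1.09 (adjusted p = 0.199) and -2.04 ± 1.06 (adjusted p = 0.2). In fits of only the groups compared, the adjusted p was 0.0283 in WT and 0.000356 in *Cldn2*KO, so the call differed between the fits. WT control replicate 2 had 9.62 CPM and lay with the other controls.
*Myc*, the growth-promoting transcription factor, had levels of 10.7, 16.1 and 41.1 CPM in *Cldn2*KO recovery against 16.02, 8.66 and 12.2 CPM in the controls (0.88 ± 0.38 on the log2 scale, adjusted p = 0.115), and the groups overlapped. It was called higher without *Cldn2*KO recovery replicate 1 (1.22, adjusted p = 0.0279), and without replicate 3 its log2 fold change was 0.12.
Of the brakes on the pathway other than *Nkd1*, the log2 fold changes in WT were -0.29 ± 0.71 for *Axin2*, 0.18 ± 0.39 for *Rnf43* and 0.05 ± 0.40 for *Znrf3*, and none was called. *Axin2* in *Cldn2*KO had 4.61, 3.43 and 17.2 CPM in recovery and 12.6, 10.5 and 9.47 CPM in controls (-0.37 ± 0.71 on the log2 scale, adjusted p = 0.769). *Rnf43* had 24.5, 25.1 and 45.9 CPM and 42.2, 42.00 and 45.04 CPM (-0.44 ± 0.39 on the log2 scale, adjusted p = 0.477). In both genes *Cldn2*KO recovery replicates 1 and 2 were below the 3 controls and replicate 3 was above them.

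**Figure D2:**
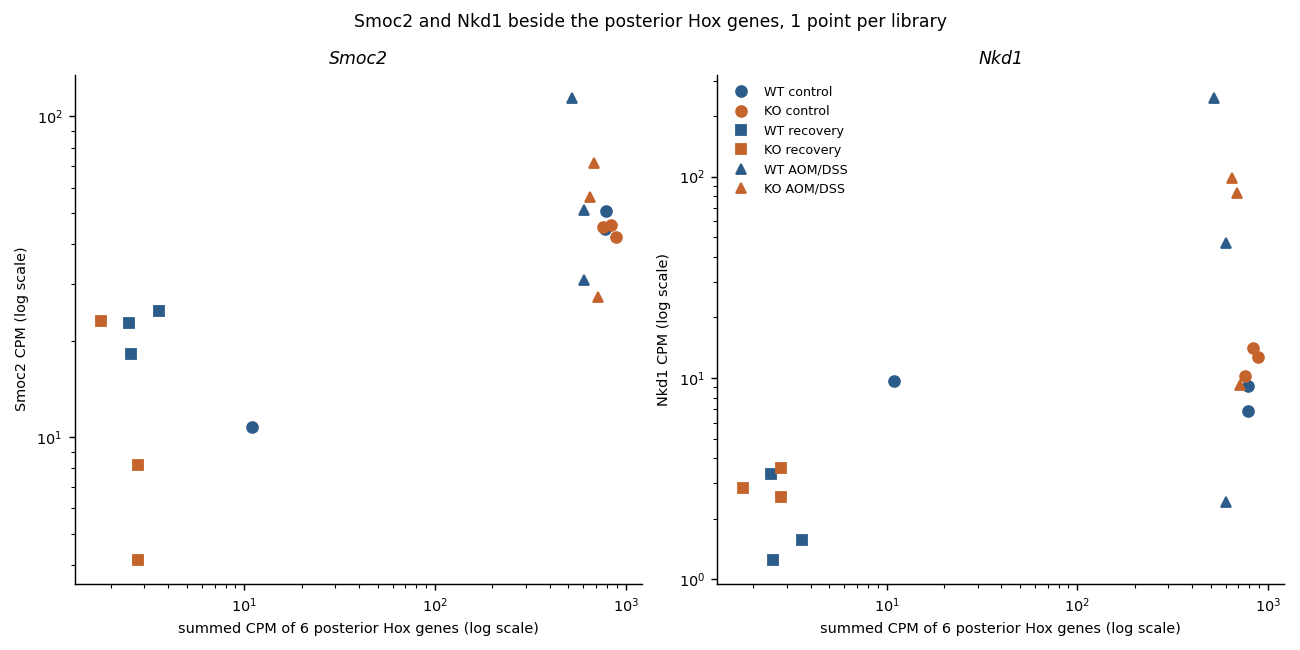
Level of *Smoc2* (left) and *Nkd1* (right) in CPM against the summed CPM of 6 posterior Hox genes, 1 point per library, both axes logarithmic (blue WT, orange KO for *Cldn2*KO; circles control, squares recovery, triangles AOM/DSS). The 6 recovery libraries lie at 1.77 to 3.59 CPM of posterior Hox genes and WT control replicate 2 at 11 CPM; that control sits low in *Smoc2* (10.7 CPM) and with the other controls in *Nkd1* (9.62 CPM).

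The genotypes were then compared within recovery. edgeR called none of the 10 genes, beside 0.549% of all genes higher and 0.425% lower in *Cldn2*KO. None of the 10 had an unadjusted p under 0.05, beside 3371 of all 16937 genes, and DESeq2 called none of them and 10.3% of all genes. *Lgr5*, *Ascl2* and *Smoc2* are described first. *Lgr5* levels were 8.42, 11.8 and 4.08 CPM in the WT and 2.46, 0.835 and 7.18 CPM in the *Cldn2*KO recovery libraries (-1.21 ± 0.96 on the log2 scale, adjusted p = 0.526). *Ascl2*, the transcription factor that maintains crypt base stem cells, stood at 2.85, 3.66 and 1.60 CPM in the former and 0.803, 0.278 and 3.54 CPM in the latter (-0.80 ± 0.63 on the log2 scale, adjusted p = 0.519). *Smoc2* followed the same order with 22.7, 24.8 and 18.2 CPM and 8.19, 4.13 and 23.03 CPM (-0.89 ± 0.63 on the log2 scale, adjusted p = 0.467).
In all 3 genes *Cldn2*KO replicates 1 and 2 were below every WT recovery library, while *Cldn2*KO replicate 3 lay within the WT range. Replicate 3 was the highest *Cldn2*KO recovery library in 8 of the 10 genes, and its summed proliferation markers (8 genes, such as *Mki67* and *Top2a*) were at 697 CPM against 222 and 207 CPM in replicates 1 and 2 and 631 to 969 CPM in WT recovery. Leaving it out gave a log2 difference of -2.32 in *Ascl2* with an adjusted p of 0.0416, and *Ascl2* was the 1 gene of the 10 called then, beside 2.61% of all genes in either direction. Without that library the difference was -2.30 in *Lgr5* and -1.83 in *Smoc2*. The part of proliferation in these values was not tested. Of 15 other crypt stem and progenitor genes, 3 were called higher in recovery than in control in WT and 4 in *Cldn2*KO, and none lower. Among them was *Prom1*, at 968 ± 109 CPM in *Cldn2*KO recovery and 280 ± 73.6 CPM in *Cldn2*KO controls (SD, n = 3 each; 1.79 ± 0.52, adjusted p = 0.026).
The interaction test, which asks whether the change from control to recovery differed between genotypes, called none of the 10 genes and 0.13% of all genes in either direction. None of the 10 had an unadjusted p under 0.05, beside 3141 of all 16937 genes, and DESeq2 called none of them and 7.56% of all genes. The 95% confidence interval of the interaction was wide, -2.85 to 0.86 on the log2 scale for *Ascl2* and -4.24 to 1.48 for *Lgr5*.

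AOM/DSS was compared with untreated colon first in WT. Against WT controls 6 of the 10 genes were called higher in WT AOM/DSS (*Axin2*, *Nkd1*, *Notum*, *Rnf43*, *Znrf3* and *Myc*) and none lower, where 3.81% of all genes were higher and 6.58% lower. All 10 had positive log2 fold changes, with a median of 1.65 beside 0.0076 over all genes.
*Axin2*, the scaffold of the destruction complex and a standard readout of Wnt signaling, stood at 14.9, 4.78 and 13.98 CPM in the controls and at 16.5, 56.7 and 154 CPM in AOM/DSS. The groups did not overlap, and the log2 fold change was 2.75 ± 0.74 (SE, adjusted p = 0.0342), a 6.73-fold rise. *Rnf43* stood at 30.9, 16.5 and 31.97 CPM in controls and 34.5, 66.4 and 139 CPM in AOM/DSS (1.59 ± 0.40 on the log2 scale, adjusted p = 0.0267). Its partner ligase *Znrf3* stood at 9.83, 7.27 and 10.7 CPM and 13.3, 21.97 and 56.2 CPM (1.72 ± 0.40 on the log2 scale, adjusted p = 0.0222).
For these genes, and for *Myc* at 10.5, 9.56 and 13.1 CPM in controls and 26.4, 30.6 and 41.05 CPM in AOM/DSS (1.57 ± 0.38 on the log2 scale, adjusted p = 0.0249), every AOM/DSS library was above every control. *Ascl2* and *Sox9* below brought such genes to 6 of 10, beside 14.9% of all genes. *Nkd1* behaved differently, since 1 of the 3 AOM/DSS libraries was below the controls. It stood at 9.08, 9.62 and 6.85 CPM in controls and at 2.42, 46.6 and 247 CPM in AOM/DSS (3.53 ± 1.07 on the log2 scale, adjusted p = 0.0492).

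*Notum*, a secreted enzyme that strips the lipid from Wnt ligands, went from almost no reads to a high level in 4 of the 6 AOM/DSS libraries. Its levels were 0, 0 and 0.548 CPM in WT controls, 0.145, 24.2 and 98.6 CPM in WT AOM/DSS, 0.0986, 0.0555 and 0.0538 CPM in *Cldn2*KO controls and 38.9, 0.260 and 42.2 CPM in *Cldn2*KO AOM/DSS. WT replicate 1 and *Cldn2*KO replicate 2 of AOM/DSS stayed near the control level. Over the 3 libraries of a group there were 10 reads in WT controls and 2642 in WT AOM/DSS, a ratio of 279 in reads per total reads, without the scaling used for CPM, with an exact 95% counting interval of 151 to 582.
In *Cldn2*KO 4 reads became 2024, a ratio of 393 with an interval of 153 to 1445, and these intervals cover counting error only. The fitted log2 fold change was 7.83 ± 2.02 in WT (adjusted p = 0.0307) and 8.48 ± 2.21 in *Cldn2*KO (adjusted p = 0.122). *Notum* (chr11:120653788-120661175, minus strand, GRCm38) overlaps the antisense gene *Notumos* over 1450 bases. Whether reads were counted by strand is not known, so the 866 reads counted to *Notumos* and the 4696 to *Notum* over all libraries cannot be fully separated.

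Crypt base stem cell markers were also at higher mean levels in WT AOM/DSS, but they were not called against control. *Lgr5* stood at 6.53, 3.54 and 7.90 CPM in WT controls and 2.71, 20.4 and 74.3 CPM after AOM/DSS (2.43 ± 0.97 on the log2 scale, adjusted p = 0.11). The AOM/DSS libraries lay on both sides of the controls and differed 27.4-fold among themselves. *Ascl2* stood at 3.46, 2.49 and 4.06 CPM and 4.21, 10.1 and 14.3 CPM without overlap (1.51 ± 0.61 on the log2 scale, adjusted p = 0.112). *Smoc2* overlapped, with 30.9, 51.2 and 114 CPM in AOM/DSS (0.89 ± 0.62 on the log2 scale, adjusted p = 0.357).
*Sox9* stood at 47.1, 58.2 and 91.7 CPM, just above the controls at 37.2, 16.5 and 46.4 CPM (0.97 ± 0.38 on the log2 scale, adjusted p = 0.104). Of the 10 genes, 9 had an unadjusted p under 0.05 in this comparison, beside 5069 of all 16937 genes, *Smoc2* being the exception among the 10. DESeq2 called 6 of the 10 (17.9% of all genes).
The calls in WT, of these and of all genes, varied with single libraries. Without WT AOM/DSS replicate 3, or without WT control replicate 2, none of the 10 genes was called by edgeR, where the share of all genes called in either direction was 0.982% and 1.99% against 10.4% with all libraries, and the log2 fold change was 1.69 or 2.38 for *Axin2* and 1.52 or 3.61 for *Nkd1*. A fit of only the WT AOM/DSS and WT control libraries called 0 of the 10 genes and 0.0447% of all genes, and with the posterior Hox term 0 of the 10 and 1.89% of all genes were called. Under that term the log2 fold change was 2.39 for *Axin2*, 1.48 for *Myc* and 7.37 for *Notum*.

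In *Cldn2*KO mice the same comparison called none of the 10 genes by edgeR, although all 10 log2 fold changes were positive and 6 genes had an unadjusted p under 0.05. Of all 16937 genes, 2573 had such a p. Of all genes, 0.0768% were higher and 0.118% lower in *Cldn2*KO AOM/DSS than in *Cldn2*KO controls, and the median log2 fold change of the 10 genes was 1.32 beside 0.0059 over all genes.
*Axin2* stood at 12.6, 10.5 and 9.47 CPM in *Cldn2*KO controls and at 57.5, 29.5 and 72.7 CPM in *Cldn2*KO AOM/DSS (2.29 ± 0.72 on the log2 scale, adjusted p = 0.171). *Myc* stood at 16.02, 8.66 and 12.2 CPM and 34.3, 27.7 and 30.2 CPM (1.32 ± 0.38 on the log2 scale, adjusted p = 0.141), and *Znrf3* at 13.01, 9.65 and 8.29 CPM and 20.4, 20.2 and 30.4 CPM (1.20 ± 0.40 on the log2 scale, adjusted p = 0.183). *Ascl2* was the steadiest gene of this group, with 4.68, 3.11 and 3.66 CPM in controls and 9.94, 9.61 and 9.16 CPM in AOM/DSS (1.32 ± 0.60 on the log2 scale, adjusted p = 0.313).
In each of these genes, and in *Rnf43* (42.2, 42.00 and 45.04 CPM against 75.8, 53.5 and 79.1 CPM) and *Notum*, the *Cldn2*KO AOM/DSS libraries were all above the controls, which makes 6 of 10 genes beside 15% of all genes. *Nkd1* overlapped through replicate 2, with 98.5, 9.28 and 82.6 CPM (2.36 ± 1.02 on the log2 scale, adjusted p = 0.292), and so did *Lgr5* with 20.6, 3.80 and 33.01 CPM against 6.90, 5.94 and 7.37 CPM (1.505 ± 0.94 on the log2 scale, adjusted p = 0.47). *Sox9* and *Smoc2* did not separate the groups, with log2 fold changes of 0.00 ± 0.38 and 0.22 ± 0.61.
This absence of calls depended on the test. DESeq2 called 3 of the 10 genes higher (*Axin2*, *Notum* and *Myc*) and 3.56% of all genes in either direction, and edgeR fitted to only the *Cldn2*KO controls and *Cldn2*KO AOM/DSS libraries called 5 higher (*Ascl2*, *Axin2*, *Rnf43*, *Znrf3* and *Myc*) and 5.87% of all genes.

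**Figure D3:**
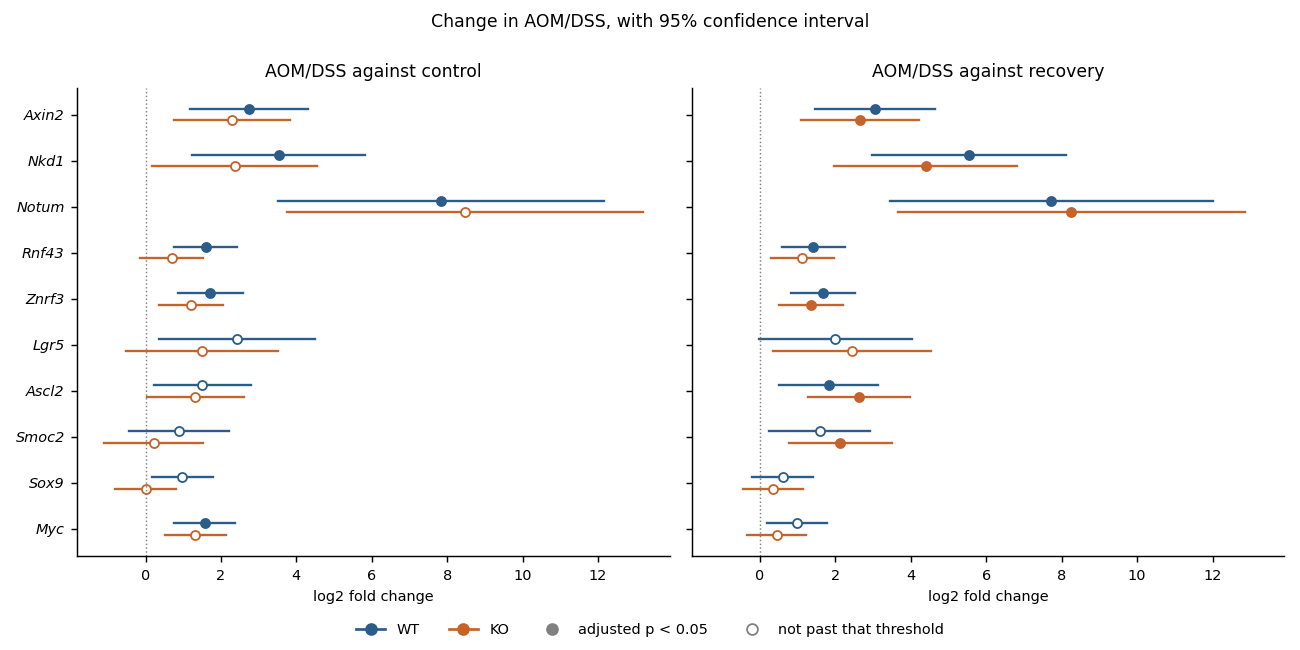
Log2 fold change of each of the 10 genes in AOM/DSS against control (left) and against recovery (right), with 95% confidence intervals (blue WT, orange KO for *Cldn2*KO). Filled points passed an adjusted p of 0.05 in edgeR: 6 genes in WT and 0 in *Cldn2*KO against control, and 6 in each genotype against recovery; the interval of *Notum* is the widest in both panels.

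AOM/DSS was also compared with recovery, the other state of injured colon in the study, and 6 of the 10 genes rose in each genotype. edgeR called 6 of 10 higher in WT AOM/DSS (*Ascl2*, *Axin2*, *Rnf43*, *Znrf3*, *Notum* and *Nkd1*), where 12% of all genes were higher and 12.4% lower. It called 6 of 10 higher in *Cldn2*KO AOM/DSS (*Ascl2*, *Axin2*, *Smoc2*, *Znrf3*, *Notum* and *Nkd1*), where 9.11% of all genes were higher and 8.66% lower. The median log2 fold change of the 10 genes was 1.74 in WT and 2.29 in *Cldn2*KO, beside 0.039 and 0.02 over all genes.
*Nkd1* had the largest change after *Notum*, 5.54 ± 1.20 on the log2 scale in WT (adjusted p = 0.00605) and 4.40 ± 1.14 in *Cldn2*KO (adjusted p = 0.0172). These are 46.6-fold and 21.1-fold higher levels. In WT the groups overlapped, since AOM/DSS replicate 1 (2.42 CPM) lay within the recovery range, and without AOM/DSS replicate 3 the log2 fold change was 3.55. *Axin2* rose by 3.04 ± 0.75 in WT (adjusted p = 0.0107) and by 2.66 ± 0.74 in *Cldn2*KO (adjusted p = 0.0233).
*Ascl2*, not called against control, rose by 1.82 ± 0.62 in WT (adjusted p = 0.0426) and by 2.63 ± 0.64 in *Cldn2*KO (adjusted p = 0.012). *Smoc2* was at 30.9, 51.2 and 114 CPM in WT AOM/DSS and 22.7, 24.8 and 18.2 CPM in WT recovery (1.58 ± 0.63 on the log2 scale, adjusted p = 0.0798), and at 55.9, 27.5 and 71.8 CPM against 8.19, 4.13 and 23.03 CPM in *Cldn2*KO (2.13 ± 0.64 on the log2 scale, adjusted p = 0.0343). Neither pair of groups overlapped. *Myc* and *Sox9* were not called in either genotype, at 0.99 ± 0.37 and 0.60 ± 0.38 in WT and 0.44 ± 0.37 and 0.34 ± 0.38 in *Cldn2*KO.
These comparisons share the AOM/DSS libraries with those against control, and the 2 states differed in posterior Hox level and in markers of other cells as well. Fibroblast markers were called higher in AOM/DSS in 4 of 7 genes in each genotype, myeloid markers in 5 of 7 in WT and 3 of 7 in *Cldn2*KO, B and plasma cell markers in 4 of 6 and 2 of 6, Paneth cell markers in 2 of 6 in each, and smooth muscle markers in 4 of 7 in *Cldn2*KO. Colonocyte markers were called lower in 3 of 7 genes in each genotype, and neuron and glia markers in 4 of 7 in WT and 2 of 7 in *Cldn2*KO. Goblet and deep crypt secretory markers were called lower in 3 of 7 in WT and 2 of 7 in *Cldn2*KO. T and NK cell markers were called lower in 3 of 7 in WT, and 2 lower and 1 higher in *Cldn2*KO. The part of these cells in the changes of the 10 genes was not tested.
 With the posterior Hox term edgeR called none of the 10 genes in either genotype and 0.372% of all genes in WT and 0.148% in *Cldn2*KO, so the lost calls say nothing particular to the 10, and *Smoc2* came to -0.57 in WT and -0.01 in *Cldn2*KO. *Nkd1* came to 5.80 in WT and 4.66 in *Cldn2*KO under that term. Of the 10 genes, 1 was called in WT without WT AOM/DSS replicate 3 (14.1% of all genes), none in *Cldn2*KO without *Cldn2*KO recovery replicate 1 (10.2%) and 1 without replicate 2 (9.25%).

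Libraries of 1 AOM/DSS group differed more than the means of the 2 genotypes did. In WT AOM/DSS replicate 3 was highest and replicate 1 lowest in 10 of 10 genes, and in *Cldn2*KO AOM/DSS replicate 2 was lowest in 9 of 10, *Ascl2* being the exception. *Nkd1* spanned 102-fold among the WT libraries and 10.6-fold among the *Cldn2*KO libraries, *Axin2* 9.36-fold and 2.46-fold, and *Myc* 1.56-fold and 1.24-fold. Over the 6 AOM/DSS libraries, deviations from the group means in log2 CPM correlated between the 45 pairs of genes with r from 0.705 to 0.990 (median 0.900), given as a description with no test. Over the other 12 libraries the range was -0.370 to 0.967 (median 0.561). No such values were computed for pairs of other genes, so whether they are particular to the 10 genes was not tested.
Paneth cell markers (6 genes, such as *Lyz1* and *Mmp7*), which belong to a cell type that normal mouse colon lacks, moved with them, and 4 of the 6 were called higher in WT AOM/DSS than in control. In *Cldn2*KO edgeR called none of the 6, 5 had an unadjusted p under 0.05 and DESeq2 called 5 higher. They summed to 37.1, 219.5 and 1834 CPM in WT AOM/DSS and 685, 13.6 and 553 CPM in *Cldn2*KO AOM/DSS, and to 5.66 to 15.5 CPM in the controls, where the defensins *Defa17* and *Defa24* had no reads. In recovery they summed to 30.5, 60.2 and 53.9 CPM in WT and 20.3, 15.2 and 21.2 CPM in *Cldn2*KO. Of the 6, 1 was called higher in recovery than in control in each genotype. Differentiated colonocyte markers summed to 3044, 3305 and 1054 CPM in WT AOM/DSS, lowest where the Wnt targets were highest, and to 3101, 3846 and 1869 CPM in *Cldn2*KO AOM/DSS. Of these 7 markers 5 were called lower in WT AOM/DSS than in control, and in *Cldn2*KO edgeR called none, 4 had an unadjusted p under 0.05 and DESeq2 called 2 lower. Proliferation markers differed less, at 960.4, 675 and 1067 CPM in WT and 804, 549 and 731 CPM in *Cldn2*KO. Markers of other cell types also differed in these libraries. Myeloid markers (7 genes) summed to 140.4, 136 and 511 CPM in WT AOM/DSS, highest in the library with the highest Wnt targets, against 133, 174 and 206 CPM in WT controls, and 2 of the 7 were called higher. Enteric neuron and glia markers (7 genes) summed to 10.9, 17.9 and 6.72 CPM against 32.95, 57.5 and 27.97 CPM, and 4 of the 7 were called lower. Smooth muscle markers were called lower in 3 of 7 genes and epithelial markers in 3 of 8 in WT AOM/DSS. In *Cldn2*KO AOM/DSS edgeR called no gene of these 4 lists against control. An unadjusted p under 0.05 was seen there for 2 myeloid, 2 neuron and glia, 6 smooth muscle and 0 epithelial markers, and DESeq2 called 2 of the myeloid markers higher and none of the others.
What share of each sample was tumor is not given in the sources used here, and the part of tumor or of these cell types in the values was not tested.

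**Figure D4:**
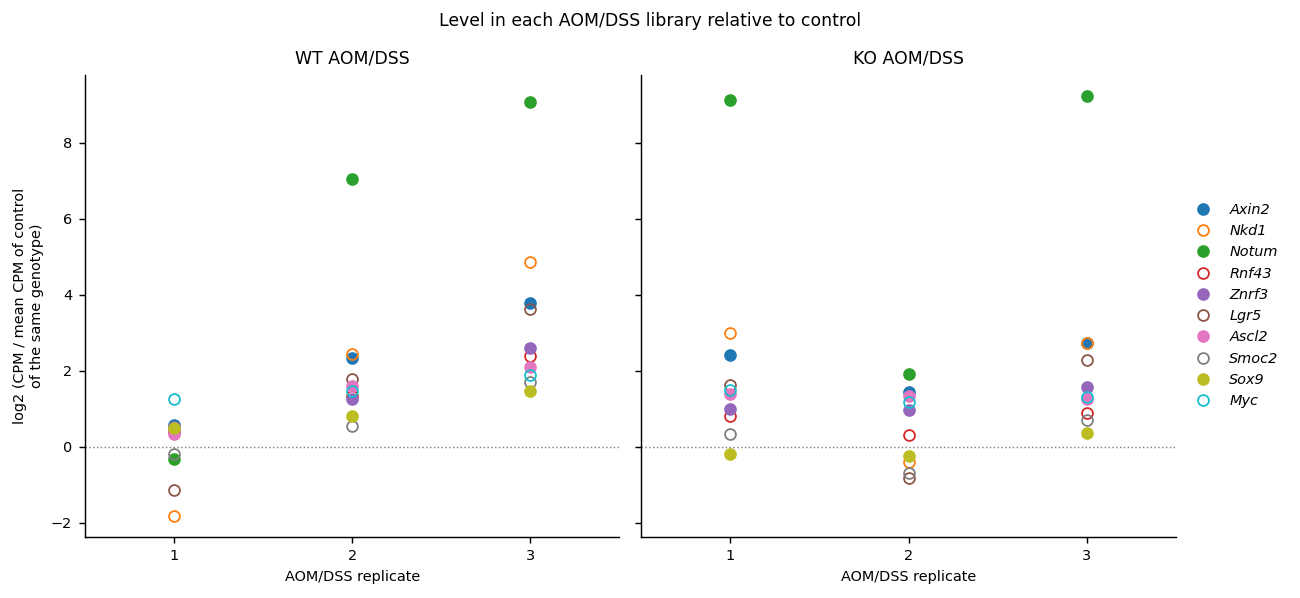
Level of the 10 genes in each AOM/DSS library relative to the mean of the controls of the same genotype, as log2 of the ratio of CPM (left WT, right KO for *Cldn2*KO; the dotted line marks the control mean). WT replicate 1 and KO replicate 2 lie near or below the control mean in *Lgr5*, *Nkd1* and *Smoc2*, and *Notum* lies far above the other genes in the other 4 libraries.

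No difference between the genotypes could be resolved in AOM/DSS for the 10 genes. edgeR called none, beside 0% of all genes higher and 0.0059% lower (1 gene, *Cldn2* itself). None of the 10 had an unadjusted p under 0.05, beside 949 of all 16937 genes, and DESeq2 called none of them and 0.0237% of all genes. Mean levels in WT and *Cldn2*KO were 75.9 ± 70.97 and 53.3 ± 21.9 CPM for *Axin2* (SD, n = 3 each) and 32.5 ± 37.3 and 19.1 ± 14.7 CPM for *Lgr5*. For *Nkd1* they were 98.5 ± 130.1 and 63.4 ± 47.6 CPM, and for *Notum* 41.00 ± 51.4 and 27.1 ± 23.3 CPM.
The *Cldn2*KO means were lower in 9 of 10 genes, and the exception was *Ascl2* with 9.52 ± 5.06 and 9.57 ± 0.390 CPM. Ranges overlapped in every gene of the 10, while 11.3% of all genes did not overlap, and the order turned with 1 library: without WT AOM/DSS replicate 3 the log2 difference (*Cldn2*KO over WT) went from -0.64 ± 0.97 to 1.38 for *Nkd1*, from -0.76 ± 0.92 to 0.72 for *Lgr5*, from -0.51 ± 0.68 to 0.54 for *Axin2* and from -0.60 ± 1.36 to 1.16 for *Notum*. The 95% confidence intervals were -1.97 to 0.95 for *Axin2*, -2.72 to 1.19 for *Lgr5*, -2.70 to 1.42 for *Nkd1*, -1.02 to 0.62 for *Rnf43* and -0.87 to 0.69 for *Myc*.
The narrowest of these excludes a 2-fold change in *Myc*, and the widest leaves room for a more than 4-fold lower level of *Nkd1* or *Lgr5*. The interaction test asked whether the rise in AOM/DSS differed between genotypes and called none of the 10 genes, with 0.0118% of all genes called in either direction. It gave no unadjusted p under 0.05 among the 10, beside 1429 of all 16937 genes, and DESeq2 called none of the 10 (0.515% of all genes). The largest estimates of the interaction were -1.17 ± 1.39 for *Nkd1*, -0.97 ± 0.54 for *Sox9* and -0.93 ± 1.31 for *Lgr5*. That 6 genes were called in WT and 0 in *Cldn2*KO against control is therefore not a shown difference between the genotypes.

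**Figure D5:**
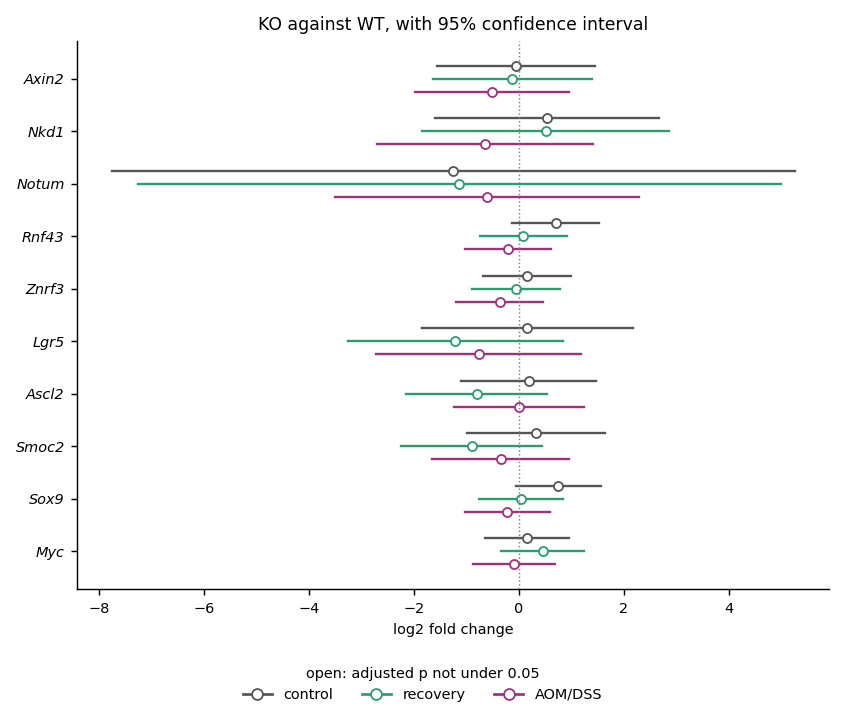
Log2 difference of *Cldn2*KO over WT (KO against WT) for the 10 genes in control, recovery and AOM/DSS, with 95% confidence intervals. All 30 points are open because none passed an adjusted p of 0.05 in edgeR, and all intervals cross 0.

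The rest of the pathway was examined through lists of ligands, receptors and other components. Their counts stand beside the shares of all genes called, which were 3.81% higher and 6.58% lower in WT and 0.0768% and 0.118% in *Cldn2*KO for AOM/DSS against control, 10% and 12.2% in WT and 9.43% and 10% in *Cldn2*KO for recovery against control, and 12% and 12.4% in WT and 9.11% and 8.66% in *Cldn2*KO for AOM/DSS against recovery. An unadjusted p under 0.05 was found for 5069 of all 16937 genes in WT and 2573 in *Cldn2*KO for AOM/DSS against control. For recovery against control in WT it was found for 6149. Of 78 genes tested in these 8 lists, edgeR called 1 between genotypes, where 0.549% of all genes were higher and 0.425% lower in recovery. It was *Dvl3*, a Dishevelled protein that relays the receptor signal, at 15.2, 9.97 and 13.01 CPM in the WT libraries of recovery and 26.3, 26.5 and 30.1 CPM in those of *Cldn2*KO (1.12 ± 0.21, adjusted p = 0.0271). DESeq2 also called 1 gene of its list there, and in the controls it called 1 ligand and 1 receptor higher in *Cldn2*KO.
Of 11 Wnt ligands tested, 2 rose in WT AOM/DSS against control and none fell, with a list median of 0.10 on the log2 scale. In *Cldn2*KO edgeR called none of them, 5 had an unadjusted p under 0.05, and DESeq2 called 2 higher. *Wnt10a* stood at 0, 0.0655 and 0.110 CPM in controls and 0.0484, 2.71 and 18.4 CPM in AOM/DSS (6.92 ± 1.97, adjusted p = 0.0438). In *Cldn2*KO AOM/DSS it stood at 9.84, 0.0974 and 8.42 CPM, with replicate 2 lowest as for *Notum*. Against recovery, 6 of the 11 ligands were higher and 1 lower in WT, and 7 higher and 1 lower in *Cldn2*KO, with medians of 2.20 and 2.37.
*Wnt6* was among the higher ones, at 0.581, 5.78 and 35.3 CPM in WT AOM/DSS against 0.773, 0.502 and 1.66 CPM in the WT recovery libraries (3.82 ± 1.16, adjusted p = 0.0282). Against control, 1 of the 11 ligands rose and 2 fell in recovery in each genotype. *Wnt11* was the higher one, at 6.35, 3.01 and 6.39 CPM in WT recovery and 4.87, 4.87 and 4.63 CPM in *Cldn2*KO recovery against 0.472, 1.31 and 0.384 CPM and 0.493, 0.499 and 0.807 CPM in the controls. It rose by 2.89 ± 0.42, adjusted p = 0.000787 in WT and by 2.99 ± 0.43, adjusted p = 0.000552 in *Cldn2*KO. *Wnt8b* was called lower in both, from 1.53, 0.131 and 1.75 CPM to 0.0814, 0 and 0 CPM in WT (adjusted p = 0.00487) and from 5.27, 7.43 and 6.08 CPM to 0, 0 and 0.0492 CPM in *Cldn2*KO (adjusted p = 0.000304). WT control replicate 2 was the low control in *Wnt8b*. The other ligand that fell was *Wnt4* in WT (-1.98 ± 0.68, adjusted p = 0.0463) and *Wnt5b* in *Cldn2*KO (-2.14 ± 0.55, adjusted p = 0.0133).

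R-spondins, the stromal proteins that amplify the signal through LGR receptors, did not rise with the targets against control. Of 3 tested, 2 fell in WT AOM/DSS against control and none of them was called in *Cldn2*KO by edgeR or DESeq2 (2 with an unadjusted p under 0.05), with medians of -2.59 and -1.05. *Rspo1* stood at 1.22, 3.54 and 0.658 CPM in WT controls and 0.145, 0.438 and 0.142 CPM in WT AOM/DSS (-2.83 ± 0.74, adjusted p = 0.03), and the groups did not overlap. *Rspo3*, the main R-spondin of the colonic stroma, fell in recovery, from 7.16, 2.82 and 6.03 CPM to 0.895, 0.717 and 0.769 CPM in WT (-2.74 ± 0.45, adjusted p = 0.00142) and from 7.64, 11.9 and 12.4 CPM to 0.857, 1.30 and 0.886 CPM in *Cldn2*KO (-3.38 ± 0.45, adjusted p = 0.000343).
Against recovery *Rspo3* was called higher in AOM/DSS in both genotypes, by 1.80 ± 0.45, adjusted p = 0.0105 in WT and by 2.33 ± 0.44, adjusted p = 0.00321 in *Cldn2*KO, and *Rspo1* was called lower in both (-3.70 ± 0.74, adjusted p = 0.00381 in WT and -2.32 ± 0.69, adjusted p = 0.0313 in *Cldn2*KO).
The fall of *Rspo3* moved with that of the fibroblast and smooth muscle markers given above, and the part of those cells in it was not tested. Of 17 receptors and co-receptors, 1 rose and 1 fell in WT AOM/DSS against control (median 0.15) and edgeR called none in *Cldn2*KO, where 4 had an unadjusted p under 0.05 and DESeq2 called 2 higher (median -0.19). *Fzd6* rose by 1.04 ± 0.30, adjusted p = 0.039 and *Fzd5*, the major Frizzled of gut epithelium, changed by -0.95 ± 0.21, adjusted p = 0.0189, from 114, 150.4 and 105 CPM to 67.5, 75.3 and 48.1 CPM.

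Of 9 secreted inhibitors tested, 2 rose and none fell in WT AOM/DSS against control, although the list median was -0.54. In *Cldn2*KO edgeR called none of them, 2 had an unadjusted p under 0.05 and DESeq2 called 2 higher (median -0.37). *Wif1*, which binds Wnt ligands, stood at 0.590, 0.327 and 1.92 CPM in WT controls, 1.69, 35.2 and 283 CPM in WT AOM/DSS and 96.4, 1.36 and 141 CPM in *Cldn2*KO AOM/DSS (6.81 ± 1.71, adjusted p = 0.0285 in WT). *Dkk2*, which binds LRP co-receptors, stood at 0.629, 0 and 1.15 CPM, 0.242, 12.3 and 62.7 CPM and 16.7, 0.422 and 20.9 CPM (5.35 ± 1.56, adjusted p = 0.0431 in WT). In both, WT AOM/DSS replicate 1 and *Cldn2*KO AOM/DSS replicate 2 were again the low libraries.
In recovery against control secreted inhibitors were called lower, with 3 of 9 falling in WT and 5 of 9 in *Cldn2*KO (medians -1.50 and -1.79), among them *Sfrp2* (-3.11 ± 0.55, adjusted p = 0.00197 in WT) and *Dkk3* (-1.57 ± 0.41, adjusted p = 0.0147 in WT).

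None of 10 genes of the destruction complex and signal transduction, such as *Apc* and *Ctnnb1*, was called in AOM/DSS against control in either genotype by edgeR or DESeq2 (0 genes in WT and 1 in *Cldn2*KO had an unadjusted p under 0.05), with medians of -0.01 in WT and 0.11 in *Cldn2*KO. In recovery against control edgeR and DESeq2 called none of the 10 in WT (2 with an unadjusted p under 0.05), while in *Cldn2*KO *Dvl3* (0.62 ± 0.21, adjusted p = 0.0466) and the kinase gene *Csnk1a1* (0.52 ± 0.15, adjusted p = 0.0248) rose.
Of 8 nuclear effectors edgeR called none in AOM/DSS against control, 4 in each genotype had an unadjusted p under 0.05, and DESeq2 called 1 higher in each (medians 0.29 and 0.56), and 3 in WT and 2 in *Cldn2*KO were higher in AOM/DSS than in recovery. In recovery against control 3 of the 8 fell in WT, and 1 rose and 2 fell in *Cldn2*KO. *Lef1*, a TCF/LEF factor that is itself a Wnt target, stood at 0.122, 0.143 and 0.0591 CPM in WT recovery and 0.581, 4.25 and 12.7 CPM in WT AOM/DSS (5.68 ± 1.19, adjusted p = 0.00496).
*Tcf7l1*, a mostly repressive TCF, fell in recovery, standing at 5.21, 5.38 and 4.38 CPM against 51.00, 18.7 and 50.1 CPM in WT controls (-3.00 ± 0.56, adjusted p = 0.00273). WT control replicate 2, at 18.7 CPM, lay between the recovery libraries and the other WT controls. *Tcf7l2*, the main TCF of gut epithelium, fell from 122, 106 and 125 CPM to 41.8, 73.1 and 46.3 CPM in WT (-1.13 ± 0.22, adjusted p = 0.00326).

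Of 11 other Wnt targets tested, 2 rose and 1 fell in WT AOM/DSS against control (median 1.42), and edgeR called none in *Cldn2*KO (median 1.51, 9 with an unadjusted p under 0.05, 4 called higher by DESeq2). *Apcdd1*, a membrane inhibitor of Wnt signaling, stood at 1.22, 2.03 and 1.26 CPM in controls and 0.290, 26.7 and 138 CPM in AOM/DSS (5.20 ± 1.46, adjusted p = 0.0384). *Prox1*, a homeobox factor of intestinal adenomas, stood at 3.62, 6.87 and 4.77 CPM and 3.82, 52.05 and 269 CPM (4.42 ± 1.20, adjusted p = 0.0355). *Nkd2* went against its relative *Nkd1*, falling from 10.2, 8.31 and 6.58 CPM to 2.18, 2.98 and 0.851 CPM (-2.06 ± 0.48, adjusted p = 0.0217).
*Nkd2* was also called lower in recovery than in control, with -2.21 ± 0.49, adjusted p = 0.00574 in WT and -2.84 ± 0.49, adjusted p = 0.00133 in *Cldn2*KO. *Cd44*, an adhesion receptor listed among both the targets and the progenitor genes, rose in recovery, from 32.6, 50.9 and 31.7 CPM to 152, 116 and 124 CPM in WT (1.77 ± 0.39, adjusted p = 0.00646) and from 23.3, 16.1 and 25.7 CPM to 69.02, 77.8 and 141 CPM in *Cldn2*KO (2.14 ± 0.40, adjusted p = 0.00236).
Of 15 other crypt stem and progenitor genes, 4 rose in WT AOM/DSS against control and none fell (median 0.75), and edgeR called none in *Cldn2*KO (median 0.55, 5 with an unadjusted p under 0.05, 2 called higher by DESeq2). *Sox4*, a progenitor transcription factor, rose from 5.43, 2.82 and 4.50 CPM to 9.15, 32.3 and 69.3 CPM (3.11 ± 0.64, adjusted p = 0.0147), and *Mex3a*, an RNA-binding protein of crypt progenitors, stood at 3.11, 1.31 and 3.40 CPM and 2.32, 11.03 and 54.2 CPM (3.10 ± 0.87, adjusted p = 0.0386). These lists hold genes chosen with earlier results of the same libraries known, so their counts are descriptions.

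Genes with the pattern most like each of the 10 were sought by Pearson correlation of log2 CPM over the 18 libraries. These libraries share group differences, so r of the deviations from the group means is given second. *Axin2* was most like *Ptk7*, a Wnt co-receptor (0.974 and 0.949), *Nkd1* most like *Gpc1* (0.974 and 0.949), with *Apcdd1* in the third place (0.965 and 0.974), and *Znrf3* most like *Nav2* (0.969 and 0.960). *Notum* was most like its antisense neighbour *Notumos* (0.992 and 0.984), with which it may share reads, then *Fgf3* (0.979 and 0.957) and *T*, the brachyury gene (0.9750 and 0.954). *Lgr5* was most like *Esr1* (0.903 and 0.927), *Ascl2* most like *Zfp61* (0.904 and 0.708) and *Smoc2* most like *Cbx2* (0.936 and 0.877).
*Rnf43* and *Sox9* were both most like *Fam222a* (0.957 and 0.934 for *Rnf43*, 0.872 and 0.849 for *Sox9*), and *Sox9* had *Rnf43* in the second place (0.830 and 0.803). *Myc* stood with *Eya2* (0.891 and 0.682) and with the ribosome biogenesis genes *Rrp1b* (0.875 and 0.749) and *Pwp2* (0.874 and 0.841).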

How the data were processed

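RNA from mouse colon was sequenced on an Illumina NovaSeq in 18 libraries, 3 in each of 6 groups, with 2 lanes a library that were summed here. The deposited values are raw counts of reads per gene, which the authors made with featureCounts on GRCm38. The methods name TopHat2 as the aligner and the submitters' processing notes name HISAT2. Versions, the annotation release, strand setting and treatment of multi-mapped reads are not given in the sources used here. Lanes of a library agreed within 1.06 to 1.13 times sampling noise (chi-square per degree of freedom), and no 2 libraries of a group did so (8.15 or more). Groups came from the sample labels. Symbols were matched to 47224 of 47729 gene IDs.

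Genes were filtered with filterByExpr over the 6 groups, libraries scaled by TMM, and contrasts tested in 1 fit of all libraries with the quasi-likelihood test of edgeR 4.0.16 in R 4.3.3, which was tested on simulated data. Log2 fold changes are given with their standard error, and CPM use TMM library sizes. The biological coefficient of variation was 0.315. DESeq2 1.42.0, other scaling and filters, terms for *Xist* and *Hoxb13*, fits of the compared groups alone and leaving out each library were alternatives. Each library held 17643058 reads or more, and a count of single reads below 1 CPM carries large counting error.

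All 10 genes were named, and from each pathway list up to 3 called genes a comparison, those with the largest absolute log2 fold change and a mean of at least 1 CPM. The 3 most alike genes were those with the highest Pearson correlation of log2 CPM (prior count 2), leaving out predicted genes. The 10 genes and the lists were chosen with earlier results of these data known.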

Additional observations from a re-analysis of the deposited data

How the results depend on the processing

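Limits come first. Each group had 3 libraries, 1 library moved most counts of called genes, recovery cannot be told apart from a low posterior Hox level, and the share of tumor in the AOM/DSS samples was not known. Genes at low counts, *Notum* in controls and recovery above all, carried wide errors.

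Of 908 refits of single values over 66 results of the 10 genes, 772 kept their direction and their side of the threshold, 96 lost it, 26 gained it and 14 reversed. Results with a small log2 fold change in the main fit were left out of these counts. Those of *Notum* in the interactions and in comparisons without AOM/DSS were left out too. Changes of direction among the results left out are therefore not counted. Scaling by DESeq2's size factors within edgeR and a filter at 1 CPM in 3 libraries left every count of called genes within 1.5 times its value. The replicate block was fitted for *Cldn2*KO against WT controls, whose labels share numbers, and called 0 of the 10 genes, as without it. Deviations of libraries with the same number correlated at 0.157, 0.002 and 0.079, and those of libraries with different numbers at -0.168 to 0.080. So few values do not settle whether the numbers pair the libraries.

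Counts of called genes among the 10 stand beside the share of all genes called, given in brackets. With all libraries and the settings of the report these shares were 19.4% for recovery against control in *Cldn2*KO (22.2% in WT), 10.4% for AOM/DSS against control in WT (0.195% in *Cldn2*KO), 24.3% for AOM/DSS against recovery in WT (17.8% in *Cldn2*KO) and 0.974% for *Cldn2*KO against WT in recovery. Without a filter the called genes were 0 in recovery against control in *Cldn2*KO (8.6%), 2 in AOM/DSS against control in WT (3.09%) and 2 in AOM/DSS against recovery in *Cldn2*KO (7.59%). With a term for sex the first of these was 0 (11.1%). With the posterior Hox term it was 0 (0.785%), as were AOM/DSS against control in WT (1.89%) and AOM/DSS against recovery in WT (0.372%) and in *Cldn2*KO (0.148%). In fits of only the groups compared, recovery against control gave 1 in WT (11.8%) and 2 in *Cldn2*KO (24.4%), and AOM/DSS against control gave 0 in WT (0.0447%) and 5 in *Cldn2*KO (5.87%), where DESeq2 gave 3 (3.56%). The cause of these shifts was not tested.

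Leaving out 1 library at a time, called genes ranged from 0 to 2 for recovery against control in *Cldn2*KO (the 1 called without recovery replicate 1, beside 14.9% of all genes, was *Myc*, higher, in place of *Smoc2*), and the 2 were called without recovery replicate 3 (16.3%). They ranged from 0 to 7 for AOM/DSS against control in WT (0 without WT AOM/DSS replicate 3, 0.982%, or WT control replicate 2, 1.99%, and 2 when the first WT control was left out, 6.24%) and from 0 to 1 in *Cldn2*KO (1 without AOM/DSS replicate 2, 1.22%). For AOM/DSS against recovery they ranged from 1 to 8 in WT (1 without WT AOM/DSS replicate 3, 14.1%, and 3 without WT recovery replicate 2, 14.8%, or 3, 15.7%) and from 0 to 6 in *Cldn2*KO (0 without recovery replicate 1, 10.2%, 1 without recovery replicate 2, 9.25%, and 3 without AOM/DSS replicate 3, 9.24%). For *Cldn2*KO against WT in recovery they ranged from 0 to 1 (1 without *Cldn2*KO recovery replicate 3, 2.61%).

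Under the posterior Hox term the log2 fold change reversed for *Smoc2* in recovery against control (1.03 in WT and 0.23 in *Cldn2*KO) and AOM/DSS against recovery (-0.57 in WT and -0.015 in *Cldn2*KO), for *Lgr5* in recovery against control in *Cldn2*KO (0.078) and for *Sox9* in AOM/DSS against recovery in WT (-0.74). Without WT AOM/DSS replicate 3 the difference between genotypes in AOM/DSS reversed for *Lgr5*, *Axin2*, *Notum* and *Nkd1*, the genes for which these values are given. Over all libraries left out in turn it ranged from -1.41 to 0.72 for *Lgr5*, -0.99 to 0.54 for *Axin2*, -1.18 to 1.16 for *Notum* and -1.21 to 1.38 for *Nkd1*. The AOM/DSS interaction ranged from -1.56 to 0.55 for *Lgr5*, -1.02 to 9.42e-05 for *Smoc2*, -0.87 to 0.26 for *Znrf3* and -1.74 to 0.83 for *Nkd1*.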

Other observations

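Genes in the second and the third place of likeness to the 10 genes are given as values only, with Pearson's r over the 18 libraries first and r of the deviations from the group means second. For *Axin2* they were *Rgs12* (0.959 and 0.896) and *Vgll4* (0.958 and 0.890), and *Vgll4* was also in the third place for *Znrf3* (0.939 and 0.834). For *Nkd1* the second was the axon guidance receptor *Robo1* (0.971 and 0.957). *Lgr5* and *Smoc2* shared *Cbx2*, a Polycomb protein, second for *Lgr5* (0.896 and 0.885), and *Smoc2* was also close to *Stmn1* (0.915 and 0.873) and *Fam72a* (0.898 and 0.953). *Rnf43* stood near *Tcf3* (0.947 and 0.940), *Ascl2* near *Fbln1* (0.904 and 0.879), and *Sox9* near *Hopx* (0.820 and 0.827). All of these values share the group differences and the spread of the AOM/DSS libraries.

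Other cells of the tissue changed between the same groups. Myeloid markers (7 genes) summed to 42.9, 54.4 and 31.4 CPM in WT recovery against 133, 174 and 206 CPM in WT controls. In *Cldn2*KO they summed to 19.3, 38.4 and 27.9 CPM in recovery against 88.7, 66.6 and 290 CPM in controls. These sums are weighted to the most abundant genes. Of T and NK cell markers, 4 of 7 were called higher in *Cldn2*KO recovery than in *Cldn2*KO control, while in WT 1 of 7 was called lower. B and plasma cell markers were called lower in recovery in 3 of 6 genes in WT and 2 of 6 in *Cldn2*KO. Goblet and deep crypt secretory markers were called higher in recovery in 3 of 7 genes in WT and 2 of 7 in *Cldn2*KO. In AOM/DSS against control edgeR called none of them in either genotype (0 in WT and 1 in *Cldn2*KO with an unadjusted p under 0.05, none called by DESeq2). The part of these cells in the values of the 10 genes was not tested.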
